A study of Mus musculus with 4 samples.

Results

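Ribosomal proteins of the cytosolic ribosome and their paralogues were followed in the arrays as every probe set annotated to a single gene whose symbol begins with Rpl or Rps and a digit, together with Rplp0, Rplp2 and Rpsa. S6 kinase symbols and pseudogene symbols were left out. The rule took 106 of 45037 probe sets, which stand for 50 of 18193 genes. Of these genes, 21 encode proteins of the small subunit, 20 proteins of the large subunit and 2 proteins of the stalk, and 6 are paralogues. The remaining gene, Rps19bp1, encodes a protein that binds Rps19 and is no ribosomal protein itself. Many ribosomal protein genes have near-identical copies in the mouse genome, so that 110 further probe sets carry several symbols. They were not assigned to a gene, and 31 of the 81 ribosomal protein symbols on the array, Rplp1 among them, occur in such shared probe sets only.

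The cells were LSK cells, that is lineage-negative marrow cells positive for both Sca1 and c-Kit, among which haematopoietic stem cells and multipotent progenitors are found. They came from femurs of mice labelled WT B6/129, and all of them made a c-Myc-eGFP fusion protein, so wild type here cannot mean that the fusion gene was absent. Cells with a high level of the fusion protein (Hi) and cells with a low level (Lo) were sorted and hybridized to Affymetrix mouse expression arrays, 2 arrays each. The labels do not say how many animals went into an array or whether the arrays came from separate animals, so p-values measure the spread between these samples, which may be technical.

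The cytosolic ribosome is built from 2 subunits, each a set of proteins around ribosomal RNA, and the mRNAs of these proteins start with a run of pyrimidines, the terminal oligopyrimidine (TOP) motif, through which mTOR signalling controls their translation as a group. The c-Myc protein, which binds the E-box CACGTG together with its partner Max, is known for raising transcription of ribosome production at many steps: ribosomal RNA, ribosomal proteins and assembly factors. Single ribosomal proteins also act outside the ribosome, for example Rpl11, which with Rpl5 and 5S ribosomal RNA binds the ubiquitin ligase Mdm2 and so protects p53. Paralogues differ from their canonical genes in tissue pattern, such as Rpl3l in heart and skeletal muscle and Rpl39l in male germ cells of the mouse.

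Promoters were found for 44 of the 50 genes in the RefSeq promoter table of GRCm38.p6 (250 bases before and 50 after the annotated start). Rpl7, Rpl8, Rps14, Rps20, Rps29 and Rps4l were not among them. The following windows, 30 bases before and 20 after the start on the strand of the gene, show the feature by which these mRNAs are known to be recognised, with the longest pyrimidine run near the start in capitals. They were picked for a long run (Rpl35), for the stalk and S6 kinase target genes (Rplp2, Rps6), for a pair of canonical gene and paralogue (Rps27, Rps27l) and for a paralogue with a run next to the start (Rpl22l1).
Rpl35, chr2:39005112-39005161, minus strand: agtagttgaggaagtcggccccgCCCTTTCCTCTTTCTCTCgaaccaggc
Rplp2, chr7:141447621-141447670, plus strand: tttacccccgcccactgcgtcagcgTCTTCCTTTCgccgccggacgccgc
Rps6, chr4:86857348-86857397, minus strand: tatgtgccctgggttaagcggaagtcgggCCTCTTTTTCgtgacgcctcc
Rps27, chr3:90213629-90213678, minus strand: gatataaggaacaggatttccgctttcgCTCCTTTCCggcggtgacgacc
Rps27l, chr9:66946056-66946105, plus strand: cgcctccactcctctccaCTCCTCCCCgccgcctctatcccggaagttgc
Rpl22l1, chr3:28805478-28805527, plus strand: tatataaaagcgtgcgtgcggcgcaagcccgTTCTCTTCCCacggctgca

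Pyrimidine runs (C or T, strand of the gene) reaching within 10 bases of the start were counted over their whole length. A run of at least 8 was present in 20 of the 44 promoters, 45.5%, against 15.8% of the 27025 genes of the table. The run covers the start itself in the printed windows of Rpl35, Rplp2, Rps6 and Rps27, whereas that of Rps27l ends 4 bases before it. For Rps27l the start of the promoter table lies inside the interval of the gene, for which a further start is thus annotated upstream. Among the 5 paralogues with a promoter, Rps27l and Rpl22l1 held such a run. The motif CCGGAAG, the core bound by ETS family factors, was found on either strand in 21 of 44 promoters, 47.7%, against 9.93% of all genes, and the TATA box letters TATAAA in 6, 13.6%, against 15.7%. The E-box CACGTG, which reads the same on both strands, was present in 4 promoters, those of Rpl13a, Rpl14, Rpl19 and Rps19, or 9.09% against 8.09%. None of these motifs contains another. Windows of 40 bases around 3 of the E-boxes, with the E-box in capitals, are shown because c-Myc is the protein by which the cells were sorted.
Rpl14, chr9:120571332-120571371, plus strand: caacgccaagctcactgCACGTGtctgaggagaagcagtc
Rpl13a, chr7:45128923-45128962, minus strand: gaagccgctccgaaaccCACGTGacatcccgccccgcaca
Rpl19, chr11:98026674-98026713, plus strand: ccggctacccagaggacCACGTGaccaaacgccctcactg

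Counted from the start as 0, the E-box lies at -168 to -163 in Rpl14, at -200 to -195 in Rpl13a and at -19 to -14 in Rpl19. For Rpl19 the start used lies inside the interval of the gene, 98022003 to 98030493, for which a further start is thus annotated upstream. A match of letters is a description and no measured binding site. Of these genes, Rpl14 had log2 intensities of 11.75 and 11.81 in Hi and 11.31 and 11.65 in Lo. Those of Rpl19 were 14.09 and 14.07 in Hi against 14.08 and 14.09 in Lo. For Rpl14 the Hi arrays were thus the higher pair, and for Rpl19 the groups overlapped. Those of Rpl13a overlapped by its brightest probe set, and its 4 probe sets ran from -0.038 to 0.118. Rps19, whose E-box is not printed, had 13.79 and 13.79 in Hi against 13.81 and 13.85 in Lo, with Hi the lower pair.

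The 4 arrays resembled each other, with r = 0.9897 between the Hi arrays, 0.9827 between the Lo arrays and 0.9724 to 0.9755 between Hi and Lo, across all probe sets, which are not independent replicates. Of the markers that define the sort, Kit stood at 11.39 and 11.58 in Hi against 11.95 and 11.55 in Lo, while Ly6a, the gene of Sca1, had no single-gene probe set. Markers of other cell types moved with the groups. The summed intensity of 4 measured erythroid markers came to 3039 and 3594 in Hi against 1099 and 1085 in Lo, with Alas2 dim throughout, that is no brighter on any array than the brightest of 27 controls for absent bacterial transcripts, and that of 5 neutrophil markers 31366 and 26812 in Hi against 21951 and 16590 in Lo. The summed intensity of 5 LSK and stem cell markers came to 16443 and 17717 in Hi against 20846 and 21044 in Lo, and 3 of 4 erythroid, 2 of 5 neutrophil and 1 of 5 LSK markers lay higher in Hi without overlap. Of the LSK markers, 2 of 5, Procr and Slamf1, lay lower without overlap. Among the remaining marker lists, the summed intensity of 2 NK cell markers was 7864 and 7297 in Hi against 5788 and 4799 in Lo, that of 4 macrophage markers 2393 and 1737 in Hi against 1488 and 1422 in Lo, and that of 3 megakaryocyte markers 5587 and 4885 in Hi against 3549 and 4249 in Lo. These sums were higher in Hi without overlap, whereas that of 4 B cell markers was lower without overlap, at 2551 and 2741 in Hi against 3323 and 3360 in Lo. The sums of 4 T cell markers, 612 and 426 in Hi against 503 and 495 in Lo, and of 4 endothelial and stromal markers, 188 and 139 in Hi against 144 and 184 in Lo, overlapped. The NK sum is carried by Nkg7, as Ncr1 lay lower in Hi without overlap. Gp9, a megakaryocyte marker, also lay lower without overlap, at 8.90 and 9.08 in Hi against 9.49 and 9.76 in Lo. Pf4 and Itga2b lay higher without overlap. Against the B cell sum, Cd79a lay higher in Hi without overlap, whereas Cd79b and Ms4a1 lay lower. Of the T cell markers Cd8a stood lower, at 5.62 and 5.44 in Hi against 6.88 and 6.55 in Lo, and Cd4 higher, at 8.49 and 8.25 in Hi against 7.94 and 8.09 in Lo. The part of these other cell types in the results that follow was not tested, and in such bulk samples fewer cells of a type and less RNA per cell cannot be told apart.

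Most ribosomal protein probe sets had nearly the same intensity in Hi and Lo, and no member passed the test. By limma over all probe sets, 0 of the 106 members were called higher and 0 lower at an adjusted p under 0.05, where 0% of all 45037 probe sets were called in either direction; the smallest adjusted p of a member was 0.166. At an unadjusted p under 0.05, 2 members were higher and 2 lower, or 1.89% each, against 9.05% and 8.91% of all probe sets. The median difference of Hi minus Lo was -0.018 on the log2 scale (interquartile range -0.046 to 0.062), against a median of 0.041 over all probe sets. Within 0.1 of zero lay 72 members, 67.9%, against 23.6% of all probe sets. Their arrays also varied little within a group: the median SD was 0.032 for members and 0.191 for all probe sets. With 2 arrays each, the absence of calls says little about changes of small or moderate size. In probe sets simulated with the variances of all probe sets, 0 of 50 changed by 2-fold and 2 of 50 changed by 4-fold were called.

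In 20 members the groups did not overlap and Hi was higher, 18.9% against 29.3% of all probe sets, and in 36 Hi was lower without overlap, 34.0% against 22% of all. The direction of this small offset depends on how the arrays are scaled. After the 4 arrays were shifted to 1 median, which moves all probe sets of an array alike, 77 members lay above and 6 below, 72.6% and 5.66% against 40.5% and 16.5% of all probe sets, with a median difference of 0.076. After cyclic loess 13 lay above and 72 below, 12.3% and 67.9% against 25.5% and 25.6% of all, with a median of -0.096. The members' median minus that of all probe sets was -0.06 as deposited, which the shift leaves as it is by construction, -0.093 after loess, -0.036 with an offset of 16 and -0.016 after probe sets of low intensity were left out. With 1 array fewer, in which more of all probe sets have groups without overlap, 37 members lay above without Lo replicate 2 (34.9%, against 43.8% of all), 31 above without Hi replicate 1 (29.2%, against 40.4%), and 62 below without Lo replicate 1 (58.5%, against 36%).

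**Figure D1:**
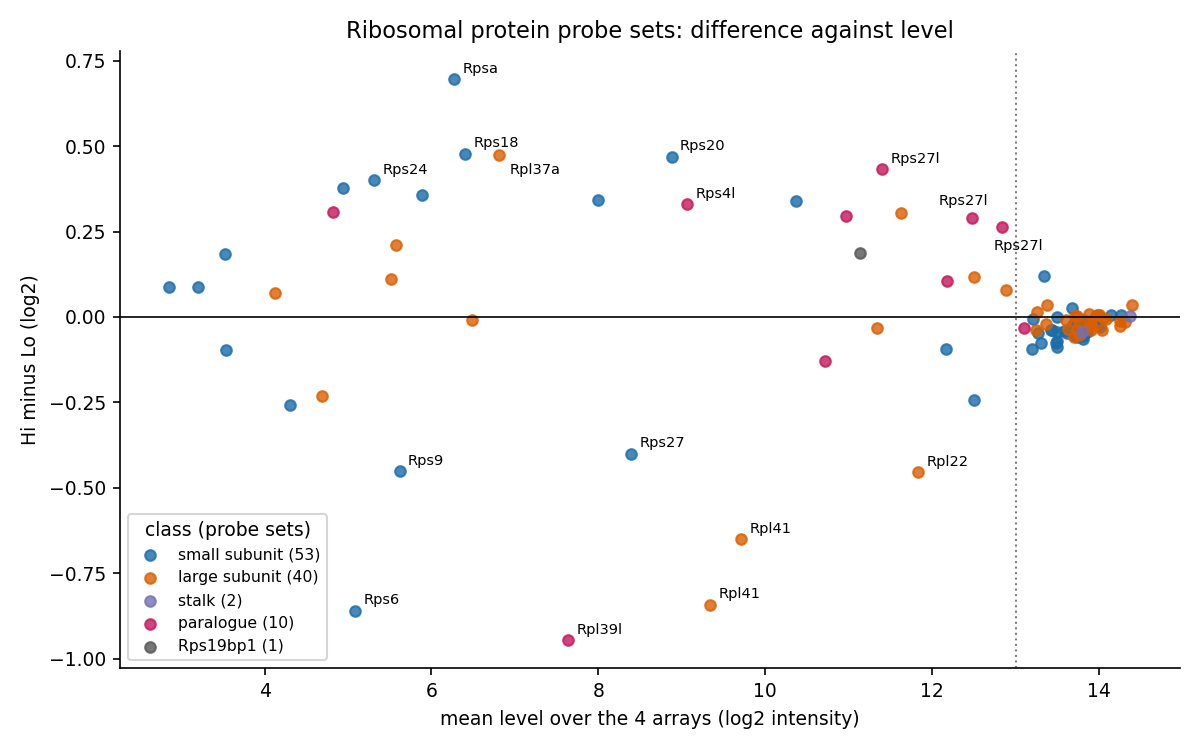
Difference of Hi minus Lo (log2, vertical axis) against the mean log2 intensity over the 4 arrays (horizontal axis) for the 106 ribosomal protein probe sets, coloured by class; the dotted line marks a mean level of 13. To the right of the line 64 of 65 probe sets lie within 0.1 of zero, while those to the left spread from -0.95 to 0.70.

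Brightness separated the members. At a mean log2 intensity of 13 or above stood 65 member probe sets, 61.3%, where 0.921% of all probe sets reached this level. Of these 65, 64 lay within 0.1 of zero, with a range from -0.095 to 0.121 and a median of -0.026. The 271 probe sets at 13 or above with no ribosomal protein symbol spread from -0.59 to 0.77, and 51.3% of them lay within 0.1 of zero. They were less bright, as the median level was 13.76 for the members and 13.28 for the others. At 13.5 or above, where the median levels were 13.81 for 51 members and 13.68 for 60 others, all 51 members and 75% of the others lay within 0.1, and the others ranged from -0.29 to 0.49. Whether single probes were near their upper limit was not tested.

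The bright members, taken as a group, had array medians of 13.74 and 13.73 in Hi and 13.77 and 13.80 in Lo. Both Hi arrays were thus below both Lo arrays, by a few hundredths. Of the 65, 27 lay below both Lo arrays and 5 above, 41.5% and 7.69%, against 26.2% and 36.9% of the other bright probe sets. The bacterial and phage hybridization controls, normally added in equal amounts, moved on a like scale: the 7 that reached a level of 13 differed by -0.073 to 0.018, and 2 of them lay lower and 0 higher without overlap. The moderated standard error of a bright member was 0.129 to 0.137, and the 95% intervals of their differences together reached from -0.46 to 0.48. With a prior variance that follows intensity the standard errors were 0.032 to 0.064 and the intervals reached from -0.23 to 0.25.

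Members of intermediate and low brightness varied more. Of 15 probe sets between 10 and 13, 9 had Hi higher without overlap and 1 had Hi lower, 60% and 6.67%, with a median of 0.12. The higher ones were all probe sets of Rps27l, those of Rpl14, Rps25 and Rps19bp1, and dimmer ones of Rpl13a and Rpl7l1. Rps27l and Rpl13a thus count more than once, and Rps19bp1 is no ribosomal protein. In the same range 35.1% of the probe sets with no ribosomal protein symbol lay above and 28.6% below, with a median of 0.031. The 26 members under 10 had a median difference of 0.10 and a range from -0.95 to 0.70. Without overlap 6 lay above and 8 below, 23.1% and 30.8% against 29.3% and 22% of all probe sets at any level. Of all 106, 6 were dim on every array, among them the single probe sets of Rps16 and Rpl37, so that both genes have no measured difference.

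By 1 probe set per gene, the brightest, 20 of the 50 genes were higher and 30 lower in Hi, with a median of -0.013. Without overlap 8 lay above (16%) and 16 below (32%), against 30% and 25.4% of all genes, and 0 were called; 0 had an unadjusted p under 0.05, where 9.25% of all genes were higher and 11% lower. With the arrays shifted to 1 median 42 genes lay above and 1 below, 84% and 2% against 40.8% and 19.7% of all genes. After cyclic loess 5 lay above and 35 below, 10% and 70% against 26% and 29.1%. Without Lo replicate 2 19 genes lay above (38%, against 43.8% of all genes), without Hi replicate 1 14 (28%, against 39.3%), and without Lo replicate 1 30 lay below (60%, against 39%).

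Proteins of the small subunit, which decodes the mRNA, were represented by 17 bright genes with a median of -0.023; 16 of them lay within 0.1 of zero. Rps19, the gene most often mutated in the human disorder Diamond-Blackfan anaemia, had 13.79 and 13.79 in Hi and 13.81 and 13.85 in Lo, a difference of -0.041 ± 0.130 (SE). Rps14, whose loss is linked to the anaemia of the human 5q- syndrome, had 13.68 and 13.73 in Hi and 13.73 and 13.80 in Lo, a difference of -0.059 ± 0.132. In both genes the Hi arrays sat just below the Lo arrays, at a distance smaller than this standard error. With a prior variance that follows intensity the standard errors were 0.041 for Rps19 and 0.048 for Rps14, about the size of the differences. Both differences turn positive when the arrays are shifted to 1 median (0.053 and 0.035). Rps29 stood at 13.78 and 13.78 in Hi and 13.85 and 13.82 in Lo and also turned to 0.039 with that shift. Rps3a1 had 14.14 and 14.14 in Hi against 14.13 and 14.14 in Lo, a difference of 0.007 that was -0.078 after cyclic loess.

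Rps2, which lies near the mRNA entry of the small subunit, was the bright member with the largest difference and the one outside 0.1. It had 13.38 and 13.42 in Hi and 13.30 and 13.27 in Lo, a difference of 0.12 ± 0.13 (SE, adjusted p = 0.68 by limma). Its Hi arrays were above its Lo arrays, by less than this standard error. With a prior variance that follows intensity the standard error was 0.050, smaller than the difference (adjusted p = 0.301 by limma). Rps25, needed for translation from several viral internal ribosome entry sites, was less bright and had 10.62 and 10.46 in Hi and 10.41 and 9.99 in Lo, a difference of 0.34 ± 0.20 (limma adjusted p = 0.467). Leaving out single arrays, it ran from 0.13 to 0.55. Rps6, the S6 kinase substrate, had 12.25 and 12.50 in Hi and 12.44 and 12.80 in Lo, overlapping groups with a difference of -0.24 ± 0.20. The difference of Rps6 ran from -0.42 to -0.06 when single arrays were left out. Its second probe set, at 4.33 and 4.98 in Hi and 5.03 and 6.01 in Lo, was near the dim limit.

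Rpsa, also known as the laminin receptor precursor, had a bright and a faint probe set. The bright one stood at 14.27 and 14.26 in Hi and 14.25 and 14.26 in Lo, with a difference of 0.006 (-0.081 after cyclic loess). The faint one, at 6.64 and 6.60 in Hi and 6.06 and 5.79 in Lo, had the smallest p of all members: 0.70 ± 0.16 (SE), 1.62-fold, unadjusted p = 0.013 and adjusted p = 0.166. The arrays of the faint probe set do not overlap, and those of the bright one lie on top of each other.

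The stalk of the large subunit, which recruits translation factors, was measured by Rplp0 and Rplp2. Rplp0 had 13.79 and 13.77 in Hi and 13.81 and 13.84 in Lo, a difference of -0.043 ± 0.129 (SE) that was 0.052 with the arrays shifted to 1 median. Rplp2 (chromosome 7, 141447651 to 141451359) had 14.37 and 14.37 in Hi and 14.36 and 14.38 in Lo, a difference of 0.002, or -0.087 after cyclic loess. The groups of Rplp2 overlapped and those of Rplp0 did not.

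Proteins of the large subunit, which forms peptide bonds, were represented by 16 bright genes, all 16 within 0.1 of zero, with a median of -0.016. Rpl11 had 13.75 and 13.72 in Hi and 13.79 and 13.80 in Lo, a difference of -0.054 ± 0.129 (SE), which was 0.041 with the arrays shifted to 1 median. Rpl37a had 13.71 and 13.64 in Hi and 13.72 and 13.74 in Lo, a difference of -0.060 ± 0.131, or 0.035 with that shift. Both had their Hi arrays just below their Lo arrays. Rpl14, with the E-box printed above, was less bright, and its difference of 0.30 ± 0.18 (adjusted p = 0.453) ran from 0.14 to 0.47 when single arrays were left out.

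Rpl41, the smallest protein of the ribosome, showed how far probe sets of a gene can part. Its brightest probe set stood at 14.42 and 14.40 in Hi and 14.37 and 14.38 in Lo, a difference of 0.035 ± 0.129 (SE). Another stood at 8.94 and 8.90 in Hi and 9.47 and 10.05 in Lo, a difference of -0.84 ± 0.24 (unadjusted p = 0.0263, adjusted p = 0.213), and a further one at 9.44 and 9.32 in Hi and 9.72 and 10.34 in Lo. The bright probe sets had Hi above Lo and the dimmer ones Hi below Lo, each without overlap. Averaged over its 4 probe sets, Rpl41 differed by -0.36.

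**Figure D2:**
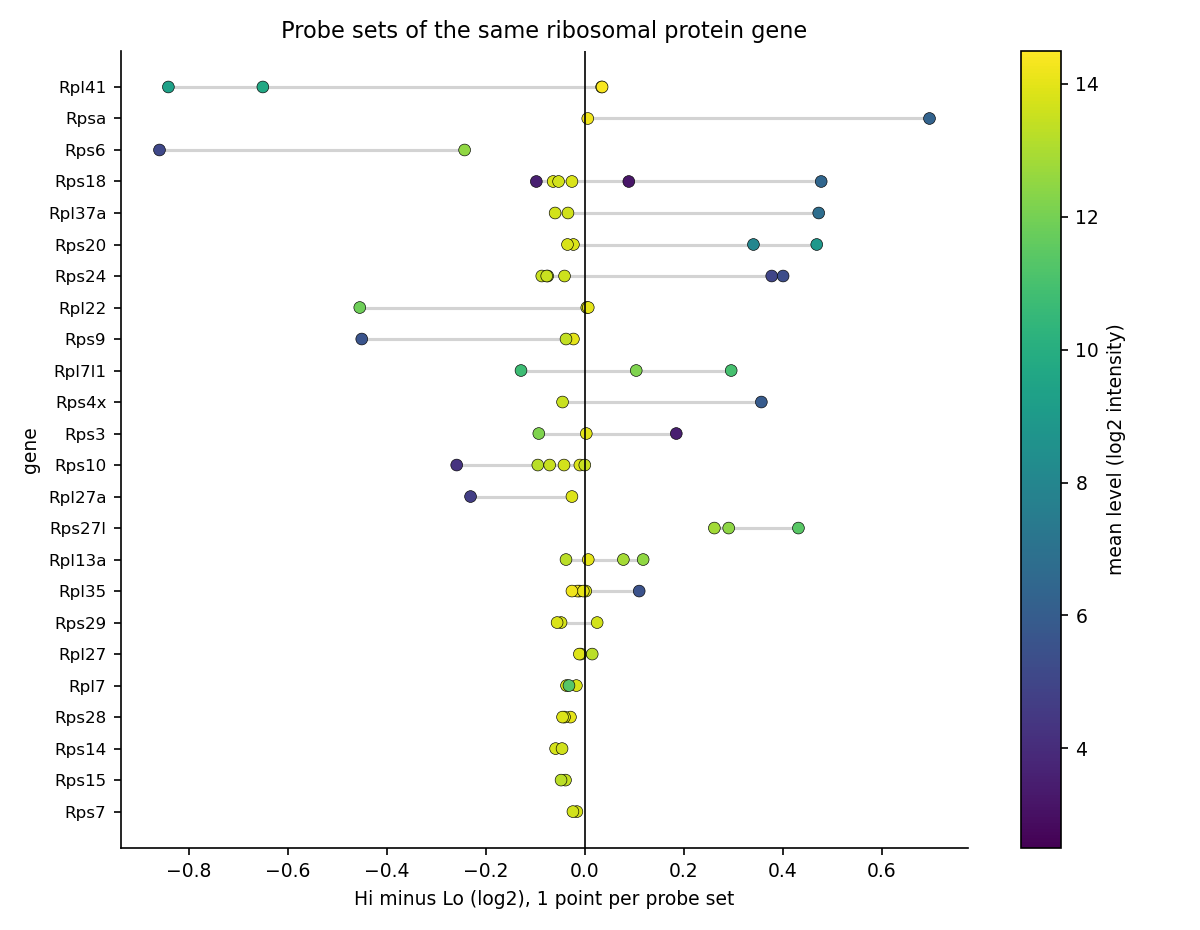
Difference of Hi minus Lo (log2, horizontal axis) of each probe set of the 24 ribosomal protein genes with more than 1, coloured by mean log2 intensity and joined by a grey line within a gene. The brightest probe sets cluster at zero, and the wide spans, such as that of Rpl41 from -0.84 to 0.035, come from dimmer probe sets.

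Of the 24 genes with more than 1 probe set, 13 had probe sets of opposite sign, and in 6 of them, Rpl13a, Rpl27, Rpl37a, Rpl41, Rps24 and Rps4x, probe sets on either side of zero each had groups without overlap. Rpl22, an RNA-binding protein of the large subunit needed in mice for the normal development of alpha-beta T cells, had 14.00 and 14.00 in Hi and 13.98 and 14.01 in Lo by its brightest probe set. A further one had 11.61 and 11.60 in Hi and 11.99 and 12.13 in Lo, a difference of -0.46 ± 0.14 (SE, unadjusted p = 0.0306, adjusted p = 0.227). That probe set alone separates the groups, and all Hi arrays lie below all Lo arrays in it. Rps20, a small subunit protein that binds Mdm2, differed by -0.023 and -0.035 in its bright probe sets, and stood at 9.19 and 9.04 in Hi and 8.99 and 8.30 in Lo in a dimmer one. The files do not say which transcript each of these probe sets matches.

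Of the 10 probe sets of the paralogues, 1 lay within 0.1 of zero. In 5 of them, 50%, Hi was higher without overlap and in 1, 10%, Hi was lower, against 29.3% and 22% of all probe sets, with a median difference of 0.28, and 0 were called. The 5 higher ones stand for 3 genes, and 3 of them are probe sets of Rps27l. Rps27l, a copy of Rps27 that p53 is known to induce in human cells, was higher in Hi in all 3 of its probe sets. The brightest (gene at chromosome 9, 66944624 to 66949522) stood at 13.01 and 12.93 in Hi and 12.64 and 12.77 in Lo, a difference of 0.26 ± 0.14 (SE), 1.20-fold, with an adjusted p of 0.42. The next had 12.65 and 12.60 in Hi against 12.29 and 12.37 in Lo, and the dimmest 11.61 and 11.62 in Hi against 11.17 and 11.19 in Lo, with differences of 0.29 and 0.43. In each of the 3 probe sets the Hi arrays were above the Lo arrays, and the smallest adjusted p was 0.222. The difference of the brightest was 0.20 to 0.33 when single arrays were left out, 0.36 with the arrays shifted to 1 median and 0.20 after cyclic loess.

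Rps27 itself, a zinc-binding protein of the small subunit, lay the other way by its single probe set, at 8.27 and 8.11 in Hi and 8.64 and 8.54 in Lo. Its difference of -0.40 ± 0.14 (SE), 0.758-fold, had an unadjusted p of 0.0512 and an adjusted p of 0.281, the smallest of the 50 genes. Both Hi arrays were below both Lo arrays. This probe set has a mean level of 8.39, whereas 35 of the 43 subunit and stalk genes reach 13. No brighter single-gene probe set of Rps27 is there to compare, and dimmer probe sets of other genes, such as Rpl41, parted from their bright ones. The opposite directions of Rps27l and Rps27 rest on it. The log2 difference of Rps27l minus Rps27 within an array depends in its level on the probes and is read only between groups; it stood at 4.74 and 4.82 in Hi and 4.01 and 4.23 in Lo.

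This difference of 0.66 between the groups had an exact permutation p of 0.333, two-sided, the smallest that 2 against 2 arrays can give, and 0.416 adjusted over the 5 pairs that could be measured of 10 listed. Rps4l minus Rps4x behaved in the same direction, at -4.19 and -4.32 in Hi and -4.58 and -4.67 in Lo, a difference of 0.38 with the same exact permutation p. Rps4l (chromosome 6, 148354656 to 148355596) stood at 9.27 and 9.19 in Hi and 8.96 and 8.84 in Lo, a difference of 0.33 ± 0.14 (SE, adjusted p = 0.33). Rps4x, its X-linked relative, stood at 13.46 and 13.50 in Hi and 13.54 and 13.52 in Lo by its bright probe set and at 6.15 and 5.99 in Hi and 5.74 and 5.68 in Lo by a faint one. Hi was above Lo for Rps4l and the faint probe set of Rps4x, and below Lo for the bright one, whose -0.045 was 0.050 with the arrays shifted to 1 median. Averaged over its 2 probe sets Rps4x differed by 0.156, so the size of the pair difference rests on the choice of probe set.

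Rpl39l (chromosome 16, 10170197 to 10174911) had the lowest difference of all members. It stood at 7.77 and 6.56 in Hi and 8.44 and 7.78 in Lo, a difference of -0.95 ± 0.51 (SE), 0.519-fold, with an adjusted p of 0.421. The 2 Hi arrays are more than a unit apart, and the higher of them nearly meets the lower Lo array. Without Hi replicate 2 the difference was -0.34 and without Hi replicate 1 -1.55. Rpl39 stood at 6.50 and 6.47 in Hi and 6.54 and 6.45 in Lo, which overlap, and Rpl39l minus Rpl39 differed by -0.94 with an exact permutation p of 0.333.

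Rpl22l1, which Rpl22 is known to repress in mice, stood at 13.08 and 13.09 in Hi and 13.07 and 13.16 in Lo, overlapping groups with a difference of -0.033 that was 0.062 with the arrays shifted to 1 median. Rpl22l1 minus Rpl22 differed by -0.040 as given by the brightest probe sets and by 0.12 where all 3 probe sets of Rpl22 were averaged, so its direction rests on the choice of probe set. Rpl7l1, a relative of Rpl7, stood at 12.19 and 12.28 in Hi and 11.98 and 12.28 in Lo, with 2 further probe sets at differences of 0.30 and -0.13. Rpl7 overlapped between the groups, at 13.73 and 13.76 in Hi and 13.72 and 13.81 in Lo. Rpl3l lay around the dim limit, at 4.80 and 5.15 in Hi and 4.91 and 4.43 in Lo, at or under it on 2 of 4 arrays. Rps19bp1 stood at 11.15 and 11.31 in Hi and 10.99 and 11.10 in Lo, a difference of 0.19 ± 0.15.

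**Figure D3:**
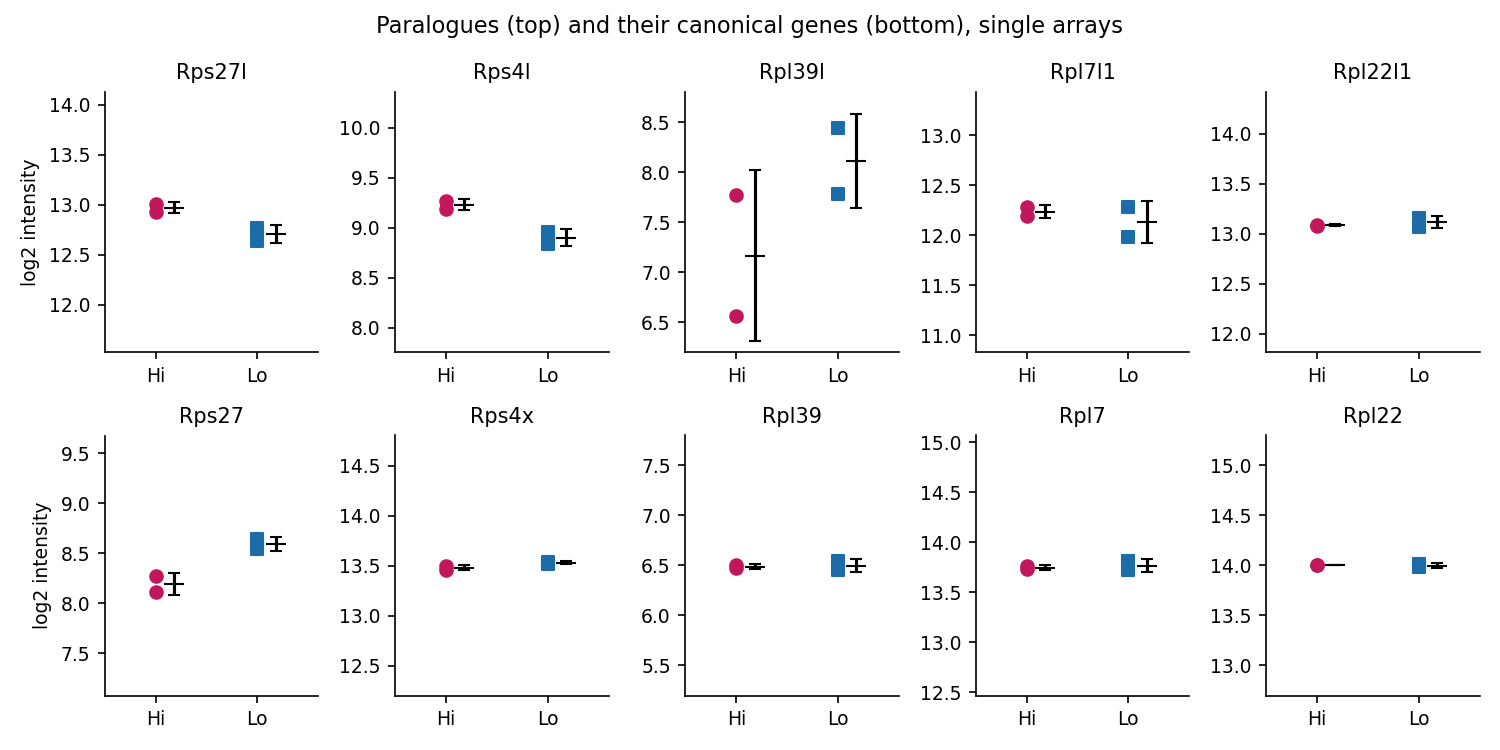
Log2 intensity (vertical axes, each spanning the same number of units) of 5 paralogues in the upper row and their canonical genes in the lower row, 1 point per array, with the mean and SD of each group (n = 2) beside the points. Hi lies above Lo for Rps27l and Rps4l and below Lo for Rps27 and Rpl39l. The Hi arrays of Rpl39l stand at 7.77 and 6.56.

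Ribosomal protein genes known from inherited Diamond-Blackfan anaemia in humans, in which red cell production fails, had 11 of 18 listed members with a single-gene probe set. All 11 lay below zero in Hi, from -0.40 in Rps27 to -0.006 in Rps26, with a median of -0.029, and 8 had groups without overlap. The median of all genes was 0.030, and 25.4% of them lay below without overlap. The median of these 11 was 0.066 with the arrays shifted to 1 median and -0.11 after cyclic loess. Averaged over their probe sets, Rps24 differed by 0.083 and Rpl35 by 0.009. The common sign thus holds for the deposited values by the brightest probe sets, and not under each scaling or where probe sets are averaged. Of the ribosomal proteins that bind Mdm2, 8 of 12 listed were measured, with a median of -0.019. Without overlap 2 lay above (Rps25 and Rps27l) and 4 below, 25% and 50% against 30% and 25.4% of all genes. The median was 0.076 with the arrays shifted to 1 median.

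Genes around the ribosomal proteins were described by lists, with 0 members called in any list and no test of a list. Other mRNAs with a TOP start (16 of 17 measured), which encode elongation and initiation factors among others, had a median of -0.035, with 3 above and 8 below without overlap, 18.8% and 50% against 30% and 25.4% of all genes. The median was 0.059 with the arrays shifted to 1 median and -0.005 where probe sets were averaged. The nucleolar chaperone gene Npm1 stood at 13.56 and 13.63 in Hi and 13.41 and 13.36 in Lo, and Gas5, a non-coding host of small nucleolar RNAs with a TOP start, at 13.10 and 13.21 in Hi and 13.35 and 13.57 in Lo. The difference of Gas5 was -0.30 by this probe set and 0.036 averaged over its probe sets, so its direction rests on the choice of probe set. Fau, which encodes the remaining small subunit protein measured outside the rule, differed by -0.073, or 0.022 with that shift.

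Factors that carry or build ribosomal proteins into subunits had larger differences, at lower brightness. Their median levels were 10.9 for escorts and importers, 10.91 for small and 11.5 for large subunit assembly genes. The ribosomal protein genes had a median level of 13.76. Among probe sets with no ribosomal protein symbol, 20.7% between 10 and 13 lay within 0.1 of zero, against 51.3% at 13 or above. The part of brightness in this contrast was not tested. Of 10 escorts and importers, 6 lay above and 0 below without overlap, against 30% and 25.4% of all genes, with a median of 0.50. Grwd1, a chaperone of Rpl3, stood at 10.78 and 10.81 in Hi and 9.90 and 10.14 in Lo, a difference of 0.77, and Heatr3, which brings Rpl5 into the nucleus of human cells, at 11.08 and 11.34 in Hi and 10.30 and 10.01 in Lo, a difference of 1.06 ± 0.19 (SE, adjusted p = 0.124). Of 16 small subunit assembly genes, 12 lay above and 0 below without overlap, with a median of 0.65. Bysl stood at 10.14 and 10.34 in Hi and 8.69 and 8.66 in Lo, a difference of 1.56 ± 0.15 (adjusted p = 0.0842), and Utp18 at 10.03 and 9.98 in Hi and 8.86 and 8.87 in Lo. Of 14 large subunit assembly genes, 13 lay above and 0 below, with a median of 0.46; Wdr12 stood at 0.78 and Ftsj3 at 0.68. Averaged over their probe sets, Bysl differed by 1.02, Utp18 by 0.60 and Wdr12 by 0.38. In a fit over 1 probe set per gene Bysl, Utp18 and Pno1 of these lists passed an adjusted p of 0.05, and where the probe sets of each gene were averaged Pno1 did, while 0 of the 50 ribosomal protein genes passed in either fit (1.04% and 1.39% of all genes called higher, 1.18% and 1.52% lower). In the averaged values 12 ribosomal protein genes lay above and 14 below without overlap, 24% and 28%, against 31.9% and 23.4% of all genes.

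Of 10 measured regulators of TOP mRNA translation, 5 lay above and 0 below without overlap, 50% and 0% against 30% and 25.4% of all genes, with a median of 0.052 and 5 genes on either side of zero. Eif4ebp1, the mTOR target that represses initiation, stood at 0.62 ± 0.15 (SE), or 0.16 averaged over its probe sets, Tia1 at 0.40, or 0.13 averaged, and Larp1, which binds the TOP motif, at 0.25. Mtor stood at -0.24 by its brightest probe set and at 0.17 averaged, so its direction rests on the choice of probe set. Leaving out single arrays moved the median of these regulators to between 0.06 and 0.19, the highest without Lo replicate 2. Of the p53 and ribosome surveillance list 6 of 8 genes were measured, without Trp53 itself, with a median of -0.24, or -0.14 with the arrays shifted to 1 median and -0.04 where probe sets were averaged. The p53 target and cell cycle inhibitor gene Cdkn1a stood at 10.13 and 9.11 in Hi and 8.61 and 8.56 in Lo, and Bbc3, a pro-apoptotic p53 target, at 6.42 and 6.04 in Hi and 7.30 and 7.18 in Lo. These p53 targets lay on opposite sides of zero. Without overlap 1 of the 6 genes lay above and 4 below, 16.7% and 66.7% against 30% and 25.4% of all genes. Below beside Bbc3 were Mdm2, Mdm4 and Ccng1, the last at 0.013 averaged over its probe sets. Host genes of small nucleolar RNAs (7 measured) had a median of 0.20, with Snhg3 at 1.22 and Snhg12 at -0.68.

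**Figure D4:**
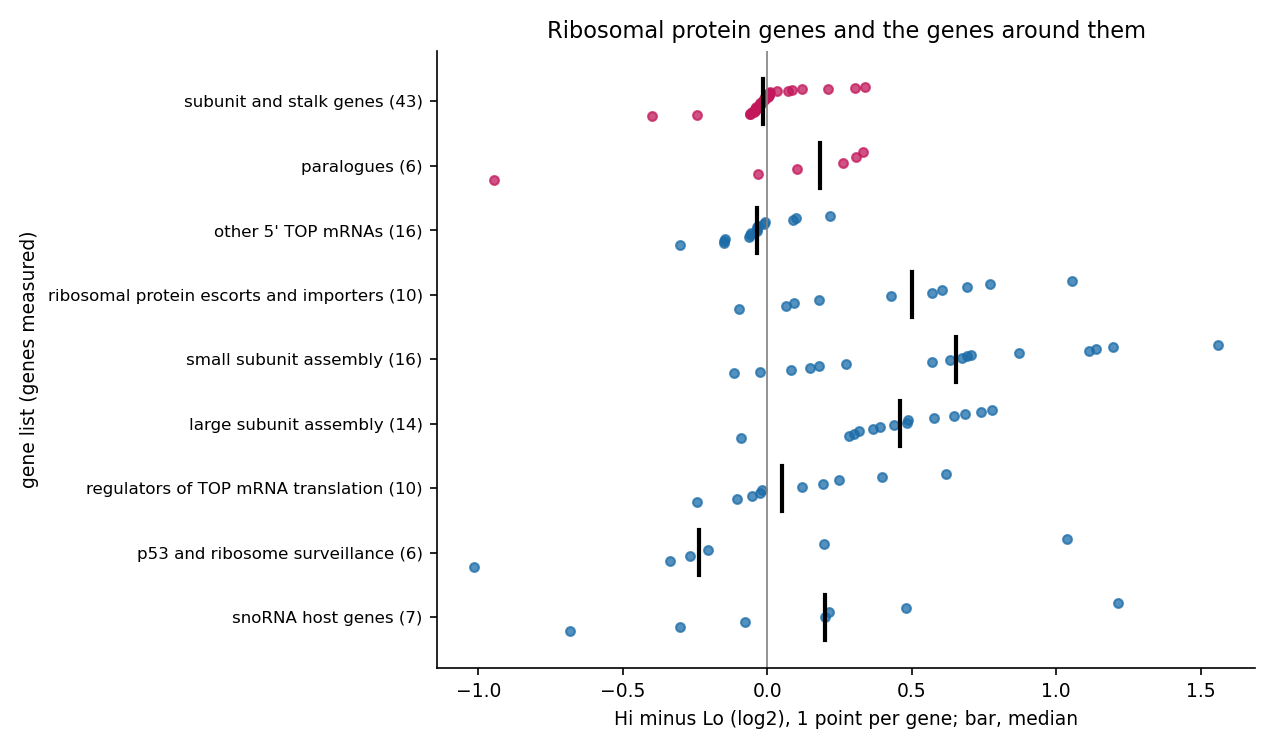
Difference of Hi minus Lo (log2, horizontal axis) for the ribosomal protein genes, their paralogues and 7 lists of related genes, 1 point per gene by its brightest probe set, with the median as a bar. Subunit and stalk genes and other TOP mRNAs gather at zero, while the medians of the escorts and assembly lists lie between 0.46 and 0.65. The escorts and assembly lists are less bright, with median levels of 10.9 to 11.5 against 13.81 for subunit and stalk genes.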

How the data were processed

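The deposited intensity values are 1 linear value per probe set and array, made by the authors with RMA per the submitters' processing notes (version not given in the sources used here) from amplified RNA. RMA gives all arrays nearly 1 distribution of values, so a shift common to all transcripts of a cell would be hidden. The highest value of the first Hi array, 22116.5, showed a linear scale, and log2 was taken here with no offset. Of 45101 probe sets, 64 controls were left out of the tests. The platform annotation gave 1 symbol to 34945, several to 932 and none to 9160.

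Hi minus Lo was fitted with limma 3.58.1 in R 4.3.3 (constant prior, two-sided), adjusted by Benjamini-Hochberg over 45037 probe sets and called at 0.05. All p-values of single probe sets and all standard errors (moderated) are from limma; paralogue pairs were tested by exact permutation. A gene was read by its brightest probe set. The dim limit was 4.735 to 4.872 by array. In 45037 simulated probe sets, 0 of 50 changed by 2-fold, 2 by 4-fold, 33 by 16-fold and 46 by 64-fold were called. Called too were 4 unchanged ones. The simulated variances followed the prior over all probe sets. Members varied less within a group (median SD 0.032 against 0.191), so these rates need not hold for them.

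Members, lists and tests were chosen with earlier results of these data known. Named were paralogues and their canonical genes, stalk genes, Rpsa, Rps6, Rps14, Rps19, Rpl11 and Rps19bp1, per direction up to 6 other genes of smallest p without overlap (5 qualified as higher), and up to 2 genes per direction of each further list. Other genes, such as Rps20, Larp1, Cd8a and Pno1, and the level of 13 for bright probe sets were chosen after their values were seen. Alternatives were other scalings, an offset of 16, a dim filter, averages of probe sets, probe sets without cross-hybridization mark, other priors, a replicate block and single arrays left out.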

Additional observations from a re-analysis of the deposited data

How the results depend on the processing

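In each setting run, 0 ribosomal protein probe sets or genes passed an adjusted p of 0.05. With the replicate number as a block 0 were called, with 20 probe sets above and 36 below without overlap as before and Rps27l at an adjusted p of 0.494. The numbers share only a name: over all probe sets the deviations of same-numbered arrays correlated at 0.072. Over all probe sets, 1 was called higher after the dim filter and 1 lower without moderation; the mean of all probe sets per gene called 252 and 276 genes, and a fit over 1 probe set per gene, chosen after seeing the data, 190 and 214, in tests over fewer features. Scaling moved most values. With arrays shifted to 1 median, 77 member probe sets lay above and 6 below (median 0.076) and 42 genes above and 1 below (median 0.082). Medians then were 0.022 for Fau, 0.059 for other TOP mRNAs, 0.147 for TOP regulators, 0.295 for small nucleolar RNA hosts, 0.066 for Diamond-Blackfan genes and 0.076 for Mdm2-binding proteins. Signs turned for Rpl11 (0.041), Rpl22l1 (0.062), Rpl37a (0.035), Rpl39 (0.086), Rpl7 (0.078), Rplp0 (0.052), Rps14 (0.035), Rps19 (0.053), Rps29 (0.039) and Rps4x (0.050). After cyclic loess 13 probe sets lay above and 72 below (median -0.096) and 5 genes above and 35 below (median -0.091), with medians of -0.151 for Fau, -0.116 for other TOP mRNAs, -0.111 for Diamond-Blackfan genes and -0.097 for Mdm2-binding proteins. Signs turned for Rpl22 (-0.075), Rpl39 (0.007), Rpl41 (-0.055), Rplp2 (-0.087), Rps3a1 (-0.078) and Rpsa (-0.081). With the mean of probe sets, signs turned for Rpl22l1 minus Rpl22 (0.115), Rpl22 (-0.148), Rpl37a (0.126), Rpl41 (-0.356) and Rps4x (0.156), and medians were 0.122 for TOP regulators and 0.006 for Mdm2-binding proteins. Among probe sets without cross-hybridization mark Rpl41 stood at -0.842 and the Diamond-Blackfan median at -0.016. Leaving out single arrays gave 26 to 37 probe sets above and 40 to 62 below (medians -0.030 to -0.008) and 11 to 19 genes above and 19 to 30 below, with medians of 0.060 to 0.188 for TOP regulators, 0.070 to 0.269 for small nucleolar RNA hosts and -0.039 to -0.017 for Diamond-Blackfan genes. Signs turned within the ranges of Rpsa (-0.000 to 0.012), Rpl39 (-0.051 to 0.033), Rplp2 (-0.005 to 0.009), Rpl22 (-0.009 to 0.024), Rpl7l1 (-0.047 to 0.256), Rpl22l1 (-0.077 to 0.012) and Rpl7 (-0.061 to 0.027). The cause of these moves was not tested. Dim probe sets carry the widest errors, and 2 arrays per group limit the precision of all values.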

Other observations

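The 110 probe sets that carry several symbols, at least 1 of them of a ribosomal protein, had a median difference of -0.023, with 10 above and 44 below without overlap, 9.09% and 40% against 29.3% and 22% of all probe sets. The direction depends on scaling: with the arrays shifted to 1 median 70 lay above and 5 below (median 0.072), and after cyclic loess 6 above and 77 below (median -0.098). Of these, 79 reached a level of 13, and 73 of them lay within 0.1 of zero, with a range from -0.18 to 0.14. The 31 dimmer ones ranged from -0.85 to 1.08.

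Control probe sets for 18S ribosomal RNA, the RNA around which the small subunit proteins assemble, differed by their position on the molecule. The middle one stood at 13.54 and 13.33 in Hi and 13.28 and 13.32 in Lo, and the 5′ one at 10.71 and 9.92 in Hi and 9.29 and 8.81 in Lo, a difference of 1.27. The 3′ one stood at 9.72 and 9.03 in Hi and 8.89 and 8.93 in Lo. The Gapdh controls differed by 0.194 at the 5′ end and 0.079 at the 3′ end. What part RNA quality or amplification has in these values was not tested.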
